A study of Acartia tonsa with 26 samples.

Results

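Eggs of the marine copepod Acartia tonsa that had developed for 14 h, the time of organogenesis, were compared with eggs at 7 h, the time of gastrulation. Both groups were subitaneous eggs, which develop without a pause, and came from 1 population kept in the dark at 16.9 °C and a salinity of 32. The comparison used 9 of the 26 RNA-seq libraries of the study, 4 at 14 h (A, B, C and E) and 5 at 7 h (A, B, C, D and E). Each library was made from RNA of an assemblage of whole eggs, and the study's design text calls the replicates technical, so the p-values measure the spread between such samples and not between independent cultures. Stage names are those of the labels. The genes were those of a deposited table of 9502 assembled genes, of which 2653 had a value of 1 or more in at least 3 of the 9 libraries and were tested. A value of 1 stood for 94.2 to 112 reads, and the reads behind the table came to between 4.30e+06 and 5.46e+06 per library. The authors had selected the genes of the table as differentially expressed among the subitaneous samples, so the calls below are a description of selected genes and no independent evidence of change.

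During gastrulation the cells of an embryo are sorted into layers, from which muscle, gut, nervous system and epidermis are then built. In crustaceans the swimming nauplius needs striated muscle, a chitinous cuticle and a nervous system at hatching, and these tissues are laid down while organs form. Early embryos also hold transcripts stored by the mother, which are removed as the embryo's own genes take over. In a bulk sample of whole eggs, fewer cells of a type and less RNA per cell cannot be told apart. Gene names below are the best protein match or domain carried by the assembly identifier, which names a related protein and is no identification. Assembled genes that share a match may be pieces of the same transcript or close copies of each other, and their reads cannot be told apart here. Values are not stated to be scaled by gene length, so levels are compared between libraries and never between genes.

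Of the 2653 genes, 1523 were higher at 14 h (57.4% of the genes tested) and 273 were lower (10.3%) at an adjusted p under 0.05 (limma). edgeR on the reads recovered from the values called 1422 higher (53.6%) and 257 lower (9.69%). At an adjusted p under 0.001 and a log2 change of at least 1 in limma, 798 were higher (30.1%) and 146 lower (5.5%). The 14 h and 7 h libraries did not overlap for 1296 genes in the higher direction (48.9%) and 249 in the lower direction (9.39%). Of the genes tested, 1101 passed the filter through the 14 h libraries alone and 105 through the 7 h libraries alone. Among the 1386 genes that passed it in both groups, 512 were higher (36.9%) and 224 were lower (16.2%). Without any filter, 6025 of 9488 genes were higher (63.5%) and 328 were lower (3.46%). A gene list whose members mostly passed the filter through the 14 h libraries alone had to be high at 14 h, so counts over the members that passed in both groups are to be read against that 36.9% and 16.2%, and counts over all members without a filter against that 63.5% and 3.46%. The median change over all genes tested was 0.76 on the log2(value + 1) scale, so single changes are to be read against that shift. Median-ratio rescaling of the libraries lowered this median by 0.59 and quantile normalization lowered it by 0.82. The counts were then 948 higher (35.7%) and 615 lower (23.2%) after the first and 592 higher (22.3%) and 770 lower (29.0%) after the second. Under all 3 scalings 559 genes were higher and 270 were lower. Both rescalings shift the median change downward, so that they favour lower calls, and keeping a lower call under them is no sign of stability.

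**Figure D1:**
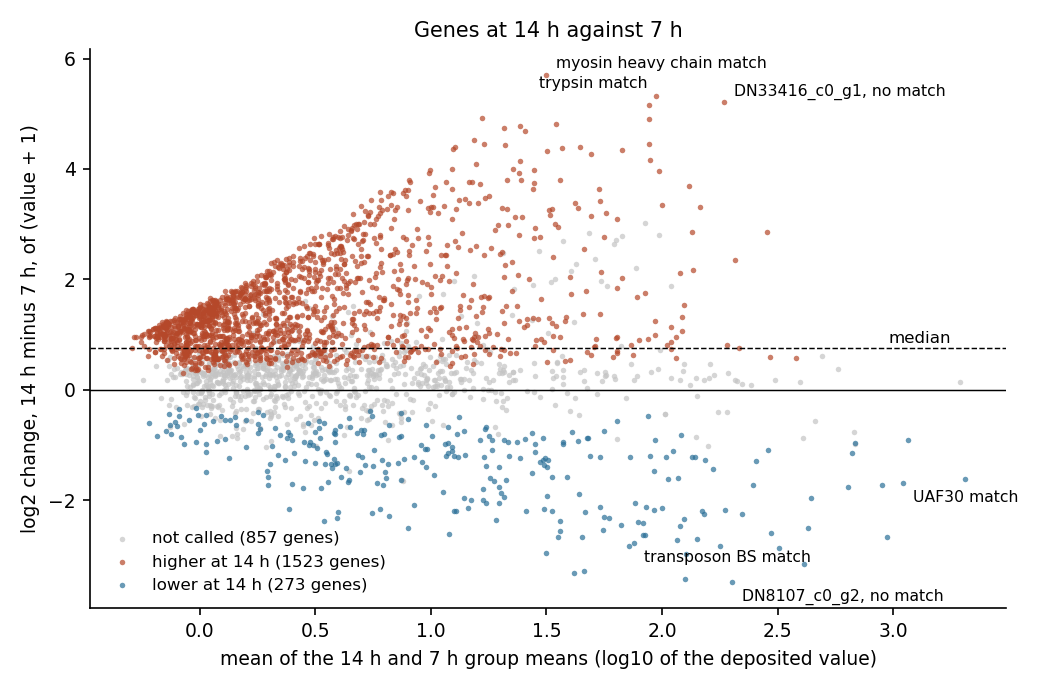
Each point is a gene, with the mean of its 14 h and 7 h group means on the x axis (log10 of the deposited value) and its log2 change of value + 1, 14 h minus 7 h, on the y axis. The 1523 genes called higher lie above and the 273 called lower lie below the 857 genes not called, and the dashed line marks the median change of 0.76.

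A protein match or domain was present in 609 of the 1523 higher genes, 43 of the 273 lower genes and 875 of all 2653 genes tested. These shares were not tested against each other. The summed group mean of the higher genes was 2.06e+04 at 14 h and 5314 at 7 h, and that of the lower genes was 8387 at 14 h and 2.75e+04 at 7 h. A signal peptide mark was carried by 21.7% of the higher genes, 16.5% of the lower genes and 16.8% of all genes tested.

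The 14 h libraries were not alike. Rank correlations over genes were 0.714 to 0.909 among the 14 h libraries, 0.853 to 0.913 among the 7 h libraries and 0.458 to 0.658 between the groups. Among the 1523 higher genes, 14 h E had the highest 14 h value in 1002, 14 h C in 251, 14 h B in 195 and 14 h A in 75. Of the higher genes with an animal match, 336 of 423 were highest in 14 h E, and of those with a plant, fungus or protist match 26 of 128 were. Sample numbers in the labels form 2 sets, one of A with B and one of C with D and E, and what the sets mark is not stated. Letters A and B alone gave 1192 higher and 188 lower genes, and letters C, D and E alone gave 1365 higher and 238 lower genes. The part of these library differences in the gene group results below was not tested, and their values are given beside each group.

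**Figure D2:**
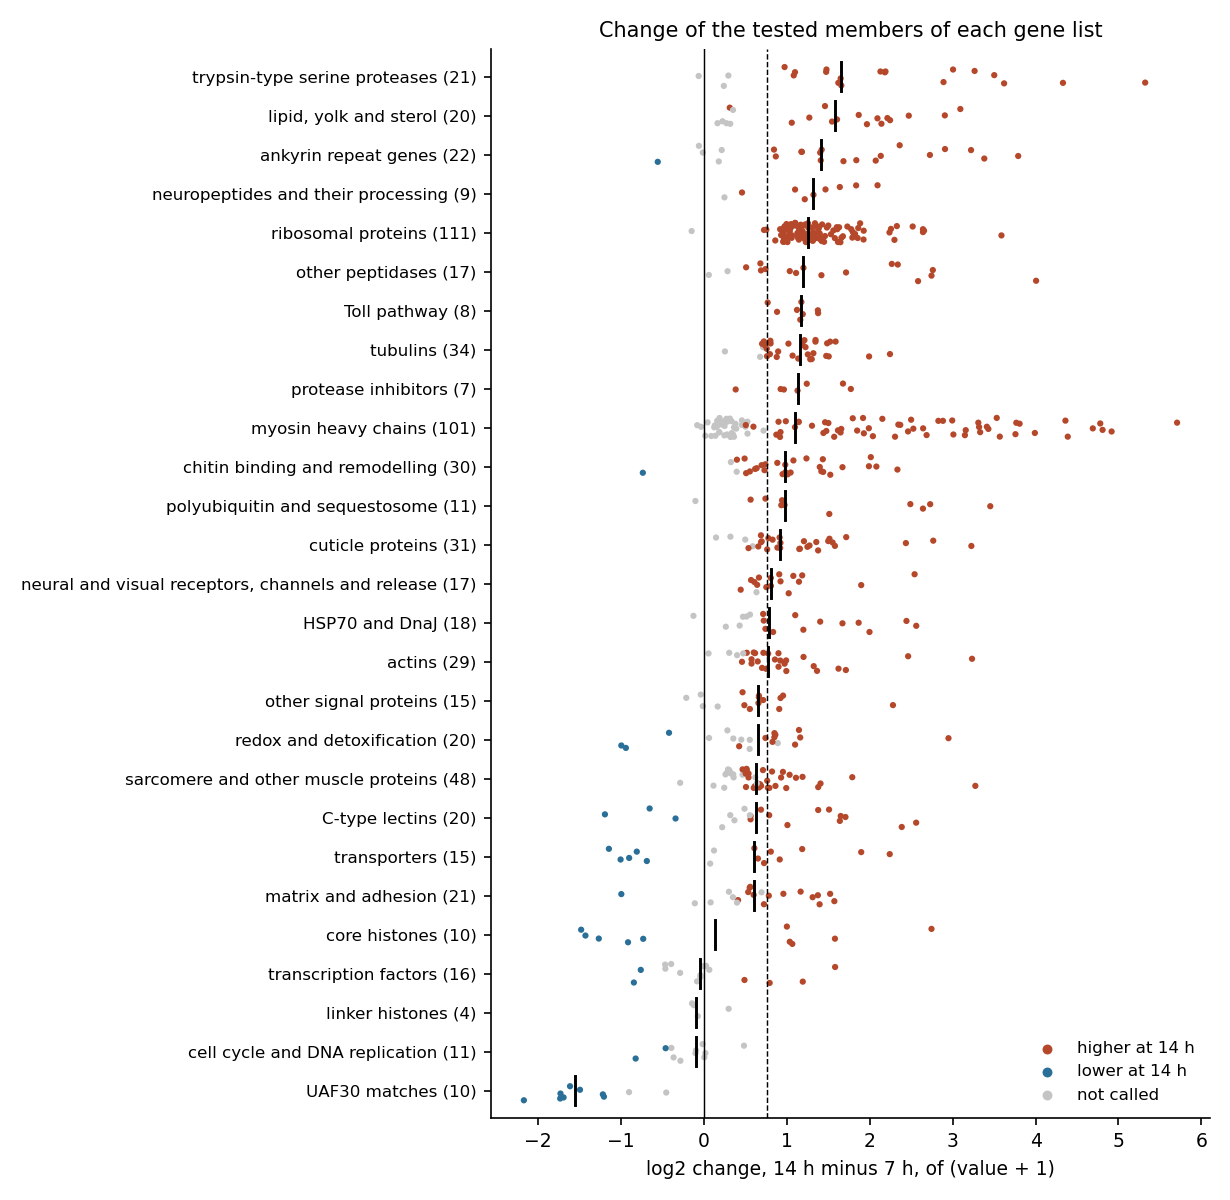
Each point is a tested gene of the named list (number of genes in brackets), placed by its log2 change of value + 1, 14 h minus 7 h, and coloured by its call. Black bars are list medians and the dashed line is the median of all 2653 genes, 0.76. All UAF30 matches lie below 0, with a median of -1.56.

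Matches to myosin heavy chains held the largest single rise among genes with a match. Myosin heavy chains, the motor proteins of thick filaments, were higher at 14 h for 58 of 101 tested assembled genes and lower for 0, a share close to the 57.4% of all genes, while their changes reached 5.71. The count was 15 of the 58 that passed the filter in both groups, against 36.9% of all such genes. It was 47 higher and 29 lower after median-ratio rescaling and 46 higher and 17 lower after quantile normalization. A match to the muscle myosin heavy chain of Drosophila (DN5090_c0_g1) had values of 37.8, 28.6, 75.4 and 109 in 14 h A, B, C and E, against 0, 0, 0, 0.384 and 0 in 7 h A to E. The groups were far apart and 14 h E was the highest, with 62.8 ± 37.1 at 14 h (SD, n = 4) and 0.0768 ± 0.172 at 7 h (n = 5), a log2 change of 5.71 ± 0.35 (SE, limma adjusted p = 1.3e-06). A match to human myosin 7B (DN7006_c0_g1) stood at 18.7, 16.0, 41.9 and 57.1 at 14 h and was listed at 0 in all 5 libraries at 7 h. Its fitted change of 4.92 ± 0.34 (limma adjusted p = 2.6e-06) depends on the pseudocount. No domain was listed for DN5090_c0_g1 or DN7006_c0_g1. Of the 19 tested members that keep the motor head domain, 9 were higher and 0 lower, with a median change of 0.525. That median is below the 0.76 of all genes tested. Among the 16 that passed the filter in both groups, 6 were higher. The largest change of the 19 was that of DN21245_c0_g1, a Drosophila muscle myosin match. It had 22.5, 26.6, 52.2 and 73.9 at 14 h, against 0.369, 1.51, 1.47, 3.249 and 1.83 at 7 h. The summed value of the 101 genes was 1499, 1725, 2779 and 3887 in 14 h A, B, C and E, against 1120 to 1728 in the 7 h libraries. So 14 h A, at 1499, and 14 h B, at 1725, lay inside the range of the 7 h sums while 14 h C and E lay above it.

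The list of sarcomere and other muscle proteins held matches to tropomyosin, troponin, light chains, titin-like proteins and muscle LIM proteins. It also held a match to the transcription factor MEF2 (DN7593_c0_g1). Of its 48 tested genes, 32 were higher and 0 lower, as were 26 of the 39 that passed the filter in both groups and 50 of all 79 without a filter. The 50 of 79 is close to the 63.5% of all genes without a filter. The 26 of 39 lies above the 36.9% of all genes that passed in both groups. The count of 32 tested genes fell to 19 without 14 h C and 21 without 14 h E. It was 6 higher and 9 lower after median-ratio rescaling and 4 higher and 11 lower after quantile normalization. A myosin regulatory light chain match (DN2072_c1_g2), which binds the neck of the myosin head, stood out from its list. It had 33.6, 26.9, 39.3 and 58.98 at 14 h, against 2.88, 2.79, 3.36, 3.11 and 3.10 at 7 h. The 7 h libraries were almost equal and all lay far below the 14 h libraries, with a log2 change of 3.27 ± 0.22 (limma adjusted p = 2.6e-06). The light chain match was also higher at 14 h after both rescalings, by 2.44 under median-ratio and 2.66 under quantile scaling.

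Actins and tubulins, which build the cytoskeleton as well as muscle, cilia and nerve processes, were mostly higher. Actin matches were higher in 25 of 29 tested genes and lower in 0, but in 16 without 14 h E, and after median-ratio rescaling in 5 with 5 lower (9 higher and 1 lower after quantile normalization). Among those that passed the filter in both groups 23 of 27 were higher, and without a filter 39 of 46. Of the 25 actins whose best match was an animal protein, 21 were higher and 0 lower. For these 25 the counts were 3 higher and 5 lower after median-ratio rescaling and 6 higher and 1 lower after quantile normalization. An actin match from a related copepod (DN2111_c2_g1) had 331, 357, 465 and 697 at 14 h, against 331, 276, 267, 336 and 282 at 7 h. The libraries overlapped, since 14 h A lay below 7 h D, and the change of 0.57 ± 0.21 (limma adjusted p = 0.033) turned to -0.37 after median-ratio rescaling. The call was lost without any of 7 h B, 7 h C, 7 h E, 14 h C or 14 h E, and the change was 0.36 without 14 h E. Tubulin matches, the subunits of microtubules, were higher in 31 of 34 genes with 0 lower, in 15 of the 18 that passed in both groups and in 49 of 55 without a filter. They were 15 higher and 1 lower after median-ratio rescaling and 8 higher and 0 lower after quantile normalization. Of the 25 tubulins whose best match was an animal protein, 22 were higher and 0 lower, with a median change of 0.878. For these 25 the counts were 7 higher and 1 lower after median-ratio rescaling and 5 higher and 0 lower after quantile normalization. An alpha tubulin match (DN6798_c0_g1) had 9.72, 8.43, 14.3 and 16.97 at 14 h, against 2.29, 1.44, 5.71, 3.21 and 5.41 at 7 h, with no overlap (log2 change 1.59 ± 0.33, limma adjusted p = 0.0015). A thymosin beta match (DN448_c0_g1), which binds actin monomers and was chosen after its values were seen, averaged 35.5 ± 13.6 at 14 h and 9.45 ± 3.38 at 7 h.

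**Figure D3:**
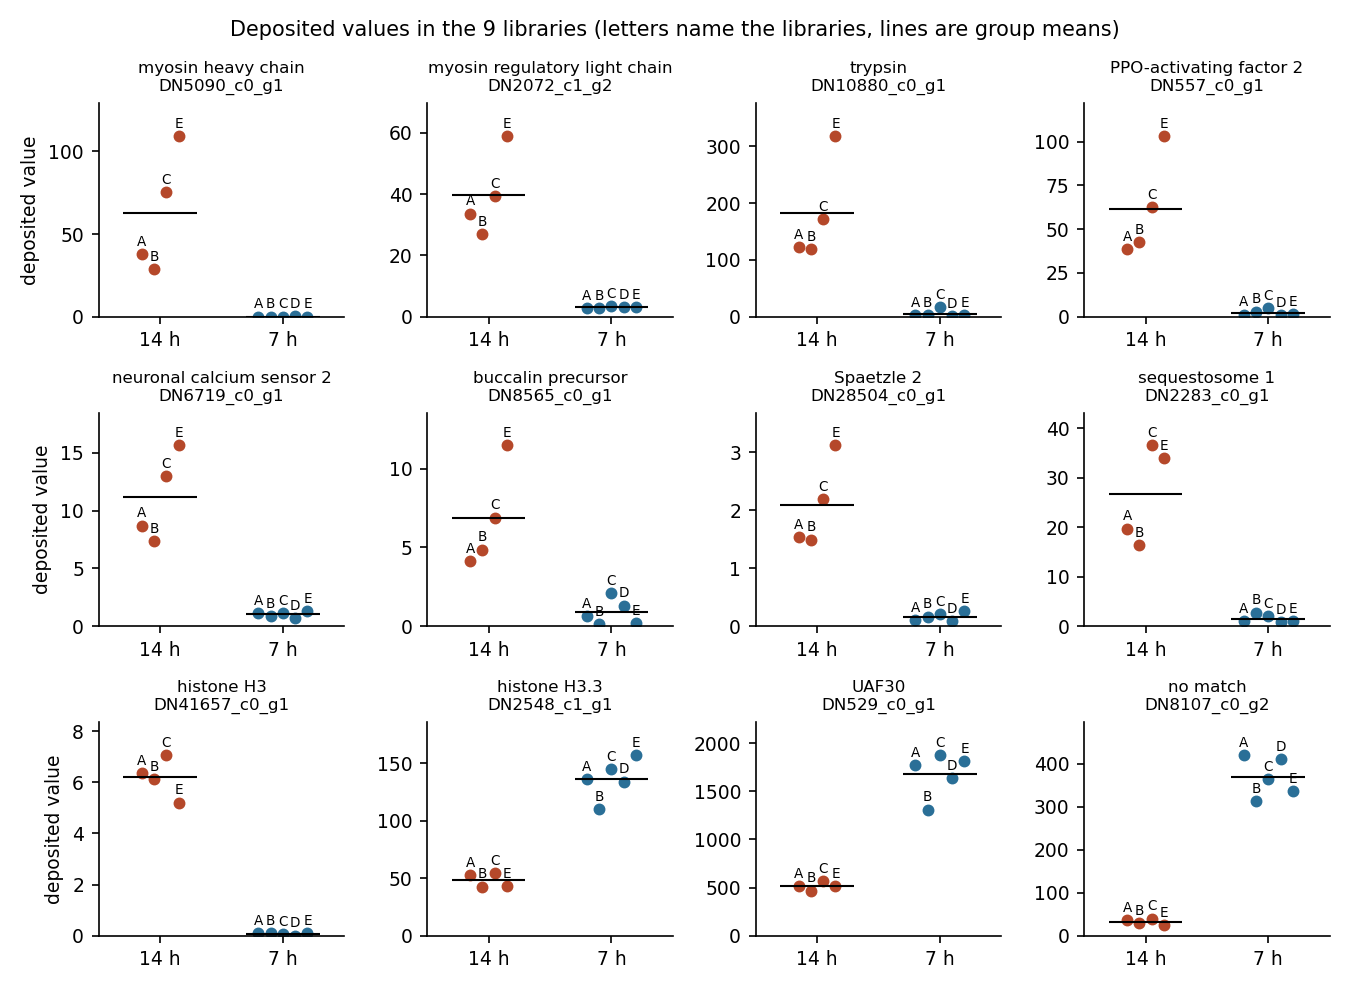
Deposited values of 12 genes in the 4 libraries at 14 h (left of each panel) and the 5 libraries at 7 h (right), on linear axes from 0, with letters naming the libraries and lines at the group means. In all 12 panels the groups do not overlap. Trypsin runs from 118 to 318 at 14 h against 0.586 to 16.9 at 7 h, and UAF30 from 469 to 567 at 14 h against 1310 to 1877 at 7 h.

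Trypsin-type serine proteases, which cut proteins in the gut and, as clip-domain forms, activate clotting and melanin cascades, were higher in 18 of 21 tested genes with 0 lower. Only 6 of the 21 passed the filter in both groups, of which 4 were higher, and without a filter 66 of 79 were higher and 0 lower. They were 17 higher and 2 lower after median-ratio rescaling and 15 higher and 2 lower after quantile normalization. A trypsin match from a crayfish (DN10880_c0_g1) had 123, 118, 172 and 318 at 14 h, against 2.60, 3.16, 16.9, 0.586 and 2.14 at 7 h. The 7 h C library stood above the other 7 h libraries but well below every 14 h library (log2 change 5.32 ± 0.63, limma adjusted p = 7.4e-05). A match to prophenoloxidase-activating factor 2 (DN557_c0_g1), a clip-domain protein that in beetles helps to activate the enzyme of melanin formation, had 38.4, 42.4, 62.7 and 103 at 14 h, against 1.19, 2.82, 4.85, 0.695 and 1.41 at 7 h. Here too 14 h E was the highest of its group and 7 h C of the other, with a log2 change of 4.33 ± 0.39 (limma adjusted p = 7.5e-06). The summed value of the 21 genes was 274, 257, 365 and 638 in 14 h A, B, C and E, against 26.5 to 61.4 at 7 h.

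Other peptidases were higher in 15 of 17 tested genes with 0 lower, in 3 of the 5 that passed in both groups and in 101 of 119 without a filter (10 higher and 1 lower after median-ratio rescaling, 8 higher and 3 lower after quantile normalization). A match to crustapain (DN2972_c0_g1), a cysteine protease known from a shrimp, had 18.3, 12.9, 24.1 and 41.2 at 14 h, against 0.279, 0.614, 1.42, 0.046 and 0.170 at 7 h. The groups did not overlap, and the log2 change was 4.01 ± 0.34 (limma adjusted p = 5.4e-06). Both matches to matrix metalloproteases carried a fibronectin type 2 domain, the fold by which the mammalian enzymes bind collagen. No peptidase domain was listed for either, so they count as peptidases by their match alone. DN4193_c0_g1 had 9.60, 6.88, 11.96 and 14.1 at 14 h, against 0.548, 0.911, 1.08, 0.339 and 0.648 at 7 h, and DN5811_c0_g1 averaged 14.0 ± 6.32 at 14 h and 1.14 ± 0.484 at 7 h. All 7 tested protease inhibitors were higher in the deposited scaling, but 1 of them passed the filter in both groups, and without a filter 14 of 18 were higher and 1 lower. The serpin match DN7029_c0_g1 changed by 0.38, lost its call without 7 h A (limma adjusted p = 0.0571) or 7 h B (limma adjusted p = 0.0527), and turned to -0.06 under median-ratio and -0.59 under quantile scaling, and the serpin match DN7224_c0_g1 changed by 0.96 and turned to -0.03 after quantile normalization. A match to alpha-2-macroglobulin-like protein 1 (DN18961_c0_g1), which traps proteases, averaged 25.7 ± 9.53 at 14 h and 7.14 ± 1.75 at 7 h.

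Lipid carriers and lysosomal lipid proteins were higher in 15 of 20 tested genes with 0 lower. Only 4 of the 20 passed the filter in both groups, of which 1 was higher, and without a filter 53 of 64 were higher and 0 lower. The count was 13 higher and 0 lower after median-ratio rescaling and 11 higher and 6 lower after quantile normalization. A prosaposin match (DN6205_c0_g1), the precursor of proteins that present sphingolipids to lysosomal enzymes, had 8.64, 7.54, 9.61 and 19.2 at 14 h, against 0.249, 0.553, 0.739, 0.046 and 0.276 at 7 h. An NPC2 match (DN21034_c0_g1), which carries cholesterol in the lysosome of mammals, had 5.37, 5.84, 9.51 and 16.4 at 14 h, against 0.179, 0.409, 0.739, 0.027 and 0.074 at 7 h. Neither gene overlapped between the groups, both were highest in 14 h E, and the log2 changes were 3.09 ± 0.27 (limma adjusted p = 6.1e-06) for the prosaposin match and 2.91 ± 0.31 (limma adjusted p = 1.6e-05) for the NPC2 match.

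The Toll pathway carries a signal from a cleaved extracellular ligand, Spaetzle, to a Rel-type transcription factor held back by Cactus, and in Drosophila it serves both the dorsoventral axis and immunity. All 8 tested genes of the list were higher at 14 h, but 2 of the 8 passed the filter in both groups, and without a filter 13 of 16 were higher and 0 lower. After median-ratio rescaling 6 were higher and after quantile normalization 1, with 0 lower. A ligand match of the Spaetzle 2 type (DN28504_c0_g1) had 1.54, 1.49, 2.19 and 3.12 at 14 h, against 0.1, 0.164, 0.211, 0.092 and 0.255 at 7 h. The inhibitor match Cactus (DN4041_c0_g1) had 1.12, 1.30, 1.69 and 3.34 at 14 h, against 0.199, 0.184, 0.317, 0.201 and 0.180 at 7 h. The Rel factor match NFKB2 (DN11066_c0_g1) had 1.16, 1.16, 1.78 and 2.92 at 14 h, against 0.130, 0.205, 0.232, 0.146 and 0.138 at 7 h. Ligand, inhibitor and factor each had no overlap and 14 h E at the top, and their log2 changes were 1.38 ± 0.17, 1.175 ± 0.20 and 1.19 ± 0.18 (limma adjusted p = 3.8e-05 for the ligand, 3.5e-04 for Cactus and 1.6e-04 for the factor). These are low values, so that the log2(value + 1) scale understates the change. A second Spaetzle 2 match (DN3344_c0_g1) had 13.1, 14.9, 23.7 and 25.1 at 14 h, against 11.1, 9.01, 9.66, 10.3 and 12.4 at 7 h, and its change of 0.77 ± 0.22 (limma adjusted p = 0.0099) turned to -0.11 after median-ratio rescaling. The Spaetzle 3 match DN4407_c0_g1 changed by 0.88 and turned to -0.11 after quantile normalization. Matches to Spaetzle 5 (DN1616_c2_g1, 1.97 ± 0.932 at 14 h and 0.106 ± 0.0581 at 7 h) and to the Toll adaptor-like protein SARM1 (DN10686_c0_g1, 1.56 ± 0.538 at 14 h and 0.157 ± 0.0491 at 7 h) completed the list with one more Spaetzle 2 match (DN16228_c0_g1, 9.74 ± 3.13 at 14 h and 3.75 ± 1.01 at 7 h).

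Neuropeptide precursors and the enzymes that mature them were higher in 8 of 9 tested genes with 0 lower, in 2 of the 3 that passed in both groups and in 12 of 15 without a filter (7 higher and 0 lower after median-ratio rescaling, 4 higher and 1 lower after quantile normalization). A buccalin precursor match (DN8565_c0_g1), a peptide that in sea hares modulates muscle, had 4.13, 4.87, 6.91 and 11.5 at 14 h, against 0.638, 0.113, 2.11, 1.31 and 0.180 at 7 h. A diuretic hormone match (DN4366_c0_g1) had 3.63, 3.79, 4.85 and 9.25 at 14 h, against 0.857, 0.737, 0.622, 0.320 and 1.01 at 7 h. An orcokinin match (DN6161_c0_g1), a peptide family first known from crayfish, had 1.98, 1.91, 2.79 and 5.02 at 14 h, against 0.229, 0.092, 0.359, 0.137 and 0.223 at 7 h. No library at 7 h reached a 14 h library for any of these precursors, and 14 h E was the highest for each, with log2 changes of 2.09 ± 0.36, 1.84 ± 0.25 and 1.64 ± 0.21 (limma adjusted p = 3.9e-04 for buccalin, 9.4e-05 for the diuretic hormone and 6.3e-05 for orcokinin). The processing enzymes, named for their role after their values were seen, included prohormone convertase 2 (DN8797_c0_g1, 2.88 ± 1.33 at 14 h and 0.616 ± 0.224 at 7 h), which cuts precursors, and its chaperone 7B2 (DN3962_c0_g1, 4.65 ± 1.72 at 14 h and 1.21 ± 0.274 at 7 h). The amidating enzyme match DN907_c0_g1 changed by 0.46 ± 0.17 (limma adjusted p = 0.030), a call lost without any of 7 h A, 7 h B, 7 h E, 14 h C or 14 h E, and it turned to -0.11 under median-ratio and -0.45 under quantile scaling.

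The list of receptors, channels and release proteins of nerve cells and eyes was drawn by name and domain. It shares members with the signal protein list and with the transporter list, such as the amino acid transporter match DN6986_c0_g1. Its genes were higher in 16 of 17 tested with 0 lower, in 5 of the 6 that passed in both groups and in 76 of 83 without a filter. After median-ratio rescaling 10 were higher and 0 lower, and after quantile normalization 2 were higher and 2 lower. A neuronal calcium sensor match (DN6719_c0_g1) had 8.68, 7.37, 12.95 and 15.6 at 14 h, against 1.13, 0.839, 1.14, 0.714 and 1.30 at 7 h. A match to the glycine transporter of nerve endings (DN7972_c0_g1), which takes the transmitter up again, had 4.52, 5.21, 9.14 and 10.7 at 14 h, against 0.608, 1.48, 1.60, 0.650 and 1.64 at 7 h. Both were without overlap, with log2 changes of 2.54 ± 0.23 (limma adjusted p = 7.1e-06) for the sensor and 1.90 ± 0.28 (limma adjusted p = 1.4e-04) for the transporter. An opsin match (DN439_c1_g1), the light-sensing protein of photoreceptors, was chosen after its values were seen and did not pass the test, with 14.8 ± 4.11 at 14 h and 9.29 ± 3.02 at 7 h (limma adjusted p = 0.058). Its change of 0.63 turned to -0.23 under median-ratio and -0.06 under quantile scaling.

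Cuticle proteins with the chitin-binding domain of arthropods were higher in 27 of 31 tested genes with 0 lower, in 14 of the 16 that passed in both groups and in 38 of 48 without a filter (15 higher and 1 lower after median-ratio rescaling, 11 higher and 4 lower after quantile normalization). The cuticle protein match DN4296_c0_g1 had 9.404, 11.2, 14.5 and 40.2 at 14 h, against 0.548, 2.08, 2.36, 0.037 and 0.149 at 7 h. The 14 h E library was far above the other 14 h libraries, and the groups did not overlap (log2 change 3.23 ± 0.48, limma adjusted p = 1.7e-04). Genes that bind or remodel chitin were higher in 27 of 30 and lower in 1, in 10 of the 10 that passed in both groups and in 63 of 74 without a filter (13 higher and 1 lower after median-ratio rescaling, 7 higher and 7 lower after quantile normalization). A chitinase 10 match (DN5228_c0_g1), an enzyme that cuts chitin, had 4.11, 3.49, 5.01 and 8.68 at 14 h, against 0.110, 0.174, 0.665, 0.082 and 0.053 at 7 h. The member that was lower was a match to a bacterial deacetylase of chitin fragments (DN4958_c0_g1), with a log2 change of -0.74 ± 0.15 (limma adjusted p = 0.0011).

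Adhesion and matrix genes were higher in 14 of 21 tested genes and lower in 1, in 5 of the 9 that passed in both groups and in 57 of 88 without a filter (6 higher and 5 lower after median-ratio rescaling, 4 higher and 6 lower after quantile normalization). The matching shares of all genes were 57.4%, 36.9% and 63.5%, and the 57 of 88 is close to the last. The matches with the largest rises were Snakeskin (DN7891_c0_g1, 2.25 ± 1.06 at 14 h and 0.0542 ± 0.0952 at 7 h), a protein of the smooth septate junctions of insect guts, and Roughest (DN1304_c0_g1, 4.797 ± 1.5 at 14 h and 0.969 ± 0.112 at 7 h), an adhesion protein of Drosophila muscle and eye. Their log2 changes were 1.57 ± 0.20 (limma adjusted p = 5.1e-05) and 1.52 ± 0.20 (limma adjusted p = 6.7e-05). The member that was lower was a peroxidasin match (DN3132_c0_g1), an enzyme that cross-links collagen of the basement membrane. It had 1.70, 1.61, 1.83 and 1.77 at 14 h, against 3.99, 4.42, 5.21, 4.03 and 4.64 at 7 h. The 4 values at 14 h were almost equal and all below the 7 h values (log2 change -0.997 ± 0.16, limma adjusted p = 2.1e-04).

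Small heat shock proteins, which hold unfolded proteins, were higher in 4 of 5 tested genes and lower in 1, and 1 of the 5 passed in both groups (3 higher and 1 lower after either rescaling). With no filter, 5 of 9 were higher and 1 lower. The match DN3843_c0_g1 had 9.04, 7.22, 15.7 and 20.97 at 14 h, against 0.159, 1.003, 1.12, 0.247 and 0.435 at 7 h, with no overlap (log2 change 3.09 ± 0.32, limma adjusted p = 1.5e-05). HSP70 and DnaJ genes were higher in 12 of 18 with 0 lower, beside 57.4% of all genes tested. Their median change of 0.79 was near the 0.76 of all genes tested. Of those that passed in both groups 10 of 16 were higher, beside 36.9% of all such genes. With no filter, 41 of 51 were higher and 0 lower, beside 63.5% and 3.46% of all genes. After rescaling the counts were 6 higher and 3 lower by median ratios and 5 higher and 2 lower by quantiles. The HSP70 match DN1676_c1_g1 had 22.8, 21.3, 44.4 and 38.8 at 14 h, against 4.01, 6.66, 5.13, 2.95 and 3.55 at 7 h. Matches to sequestosome 1, an adaptor that brings ubiquitin-tagged cargo to autophagy, belong to the list of polyubiquitin and sequestosome genes, of which 10 of 11 were higher and 0 lower, and 3 of the 4 that passed in both groups (7 higher and 0 lower after median-ratio rescaling, 5 higher and 1 lower after quantile normalization). DN2283_c0_g1 had 19.7, 16.3, 36.5 and 33.9 at 14 h, against 0.956, 2.70, 1.98, 0.842 and 0.955 at 7 h. For this gene 14 h C was slightly above 14 h E and no library overlapped (log2 change 3.45 ± 0.31, limma adjusted p = 6.4e-06). A redoxin-domain match (DN4534_c0_g2) had 53.3, 39.9, 91.6 and 68.8 at 14 h, against 5.54, 10.1, 9.15, 5.73 and 5.48 at 7 h, and likewise peaked in 14 h C.

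All 3 ferritins, the iron store of the cell, were higher under each scaling. The secreted ferritin match DN8240_c0_g1 had 16.1, 12.5, 20.9 and 31.8 at 14 h, against 2.88, 2.44, 3.17, 2.09 and 3.06 at 7 h (log2 change 2.45 ± 0.25, limma adjusted p = 1.5e-05). Superoxide dismutases, which remove superoxide, moved both ways. The match DN15497_c0_g1 averaged 4.17 ± 1.45 at 14 h and 1.25 ± 0.165 at 7 h, while DN829_c1_g1 averaged 2.31 ± 0.449 at 14 h and 5.37 ± 0.943 at 7 h. The whole redox and detoxification list had 10 of 20 genes higher and 3 lower, and 5 higher and 3 lower of the 12 that passed in both groups (6 higher and 4 lower after median-ratio rescaling, 1 higher and 5 lower after quantile normalization). With no filter, 60 of its 80 genes were higher and 3 lower, beside 63.5% and 3.46% of all genes.

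Ankyrin repeat genes were higher in 17 of 22 tested genes and lower in 1, beside 57.4% and 10.3% of all genes tested. Of the 6 that passed the filter in both groups 2 were higher, beside 36.9% of all such genes. With no filter, 36 of 54 were higher, close to the 63.5% of all genes. The ankyrin genes were 15 higher and 4 lower after median-ratio rescaling and 12 higher and 4 lower after quantile normalization. The ankyrin gene DN30880_c0_g1, whose best match was a bacterial protein, had 35.5, 27.9, 49.3 and 48.8 at 14 h, against 0.847, 1.99, 4.86, 1.59 and 1.497 at 7 h. Its groups did not overlap (log2 change 3.79 ± 0.32, limma adjusted p = 5.4e-06). A match to the kinase PIM1 (DN4267_c0_g1), which in mammals promotes cell survival, had 9.43, 9.65, 13.4 and 19.5 at 14 h, against 1.70, 1.99, 2.14, 1.65 and 1.43 at 7 h. It had the largest change of the 15 signal proteins tested, of which 11 were higher and 0 lower, and 5 of the 9 that passed in both groups (4 higher and 4 lower after median-ratio rescaling, 1 higher and 7 lower after quantile normalization). With no filter, 50 of 73 signal proteins were higher and 0 lower. C-type lectins, which bind sugars, were higher in 12 of 20 and lower in 3, a higher share near the 57.4% of all genes tested. Of the 7 that passed in both groups 2 were higher and 1 lower, beside 36.9% and 16.2% of all such genes. With no filter, 30 of 43 lectins were higher and 3 lower, beside 63.5% and 3.46% of all genes. After median-ratio rescaling 7 were higher and 4 lower, and after quantile normalization 7 higher and 5 lower. The match DN9283_c0_g1 averaged 6.98 ± 3.12 at 14 h and 0.309 ± 0.276 at 7 h, and the match DN3172_c1_g1 averaged 6.65 ± 1.01 at 14 h and 16.5 ± 2.26 at 7 h.

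Ribosomal proteins were higher in 110 of 111 tested genes and lower in 0, but only 3 of these genes passed the filter in both groups. Over all 449 ribosomal protein genes of the table, without the filter, 378 were higher and 1 lower. After median-ratio rescaling 109 of the 111 were higher and 1 lower, and after quantile normalization 45 were higher and 1 lower. The match RL39 (DN130444_c0_g1), a protein of the large subunit, had 12.8, 9.45, 16.7 and 8.96 at 14 h, against 0.269, 0, 0, 0 and 0 at 7 h. The match RL36A (DN152619_c0_g1) had 7.34, 10.5, 6.10 and 3.79 at 14 h, against 0.239, 0.604, 0, 0.256 and 0 at 7 h. For both genes 14 h E was the lowest 14 h library, unlike for muscle and protease genes, and still above every 7 h library. The summed value of the 111 genes was 280, 312, 299 and 187 in 14 h A, B, C and E, against 17.9 to 31.3 at 7 h. The best match was an animal protein for 42 of them, of which 41 were higher, and a protein of another kingdom for 69, of which 69 were higher. Such a match does not tell which organism a transcript came from.

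Reading frames that lie on ribosomal DNA and matches to a chloroplast frame, ORF91, differed most within groups. The rDNA frame match DN46488_c0_g1 had 23.3, 51.5, 8.81 and 2.97 at 14 h, against 0.488, 2.00, 1.90, 0.128 and 4.74 at 7 h. The ORF91 match DN494_c2_g1 had 75.7, 109, 15.2 and 4.16 at 14 h, against 5.85, 12.7, 1.23, 0.631 and 3.46 at 7 h. In both genes 14 h A and B were high, 14 h E was low and the groups overlapped, and the call for DN494_c2_g1 (log2 change 2.74 ± 0.98, limma adjusted p = 0.034) was lost when any of 14 h A, 14 h B, 7 h C, 7 h D or 7 h E was left out. The rDNA frames were higher in 5 of 8 tested genes (1 of the 2 that passed in both groups), in 2 without 14 h A and in 3 without 7 h D, and the ORF91 matches in 3 of 9, in 1 without any of 14 h A, 14 h B, 7 h C or 7 h D, with 1 lower without 7 h C or 7 h D. After median-ratio rescaling the rDNA frames had 1 higher and 0 lower and the ORF91 matches 0 higher and 1 lower, and after quantile normalization both had 0 higher and 2 lower.

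**Figure D4:**
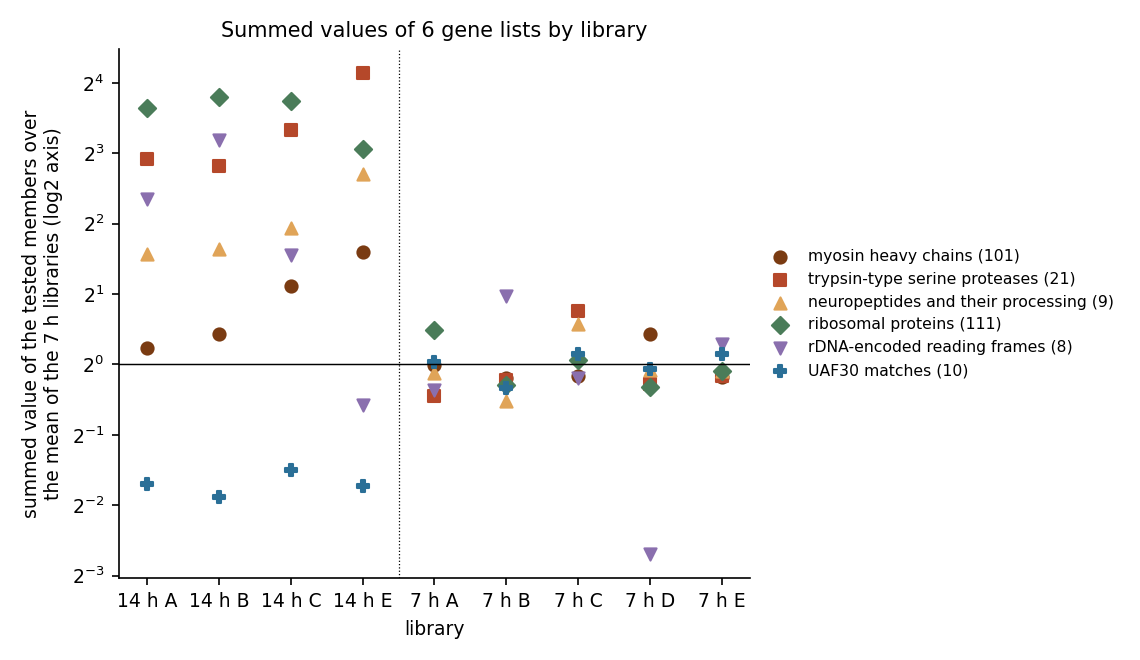
Summed deposited value of the tested members of 6 gene lists in each library, divided by the mean of the 7 h libraries, on a log2 axis (number of genes in brackets). Myosin, trypsin-type and neuropeptide sums are highest in 14 h E, ribosomal protein and rDNA frame sums are lowest there among the 14 h libraries, and UAF30 sums are low in all 4 libraries at 14 h.

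The genes that were lower at 14 h included abundant matches to chromatin proteins. UAF30, a subunit of the yeast factor that activates ribosomal RNA genes, carries a SWIB domain of the kind also found in chromatin remodelling complexes. Of 10 tested genes with this match, 8 were lower and 0 higher, beside 10.3% lower among all genes and 16.2% among those that passed the filter in both groups, as all 10 did. They were 10 lower after median-ratio rescaling and 9 lower after quantile normalization. DN529_c0_g1, which carries the domain itself, had 515, 469, 567 and 512 at 14 h, against 1769, 1310, 1877, 1637 and 1812 at 7 h. DN108694_c0_g1 had 424, 343, 484 and 405 at 14 h, against 1400, 1116, 1450, 1411 and 1491 at 7 h. The groups of both genes were compact and wide apart, with log2 changes of -1.69 ± 0.14 (limma adjusted p = 4.4e-06) and -1.73 ± 0.14 (limma adjusted p = 5.0e-06). A larger fall was that of DN2252_c0_g1, with 84.9, 43.5, 84.8 and 61.1 at 14 h, against 327, 243, 321, 287 and 342 at 7 h (log2 change -2.17 ± 0.21). The 10 genes summed to between 1129 and 1476 in the 14 h libraries, against 3314 to 4627 in the 7 h libraries.

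Of 10 tested core histone genes 5 were higher and 5 lower, with the same split after median-ratio rescaling and 2 higher and 5 lower after quantile normalization. With no filter, 16 of 26 core histone genes were higher and 6 lower, beside 63.5% and 3.46% of all genes. Histone H3.3 replaces H3 outside replication, and its match DN2548_c1_g1 had 52.6, 42.7, 54.1 and 43.3 at 14 h, against 136, 110, 145, 134 and 157 at 7 h (log2 change -1.48 ± 0.16, limma adjusted p = 1.8e-05). A match to a mouse H3 that carries the histone domain (DN7085_c0_g1) was lower too, with 108, 92.5, 92.4 and 67.8 at 14 h, against 223, 210, 223, 205 and 218 at 7 h (log2 change -1.27 ± 0.16, limma adjusted p = 4.3e-05). An H3 match from a marine worm (DN41657_c0_g1) went the other way, so H3 matches stood among both the higher and the lower genes. It had 6.35, 6.12, 7.07 and 5.21 at 14 h, against 0.090, 0.092, 0.063, 0 and 0.096 at 7 h. The groups of each gene were compact and did not overlap, and the worm H3 match changed by 2.74 ± 0.15 (limma adjusted p = 7.7e-07). The other higher members were at low values, such as an H4 match (DN9319_c1_g2) with 1.16 ± 0.125 at 14 h and 0.0342 ± 0.0564 at 7 h. An H2A match (DN19100_c0_g1) had 2.35 ± 1.86 at 14 h and was listed at 0 in every 7 h library. For both genes the best match was a plant protein, and the H4 match carried a TAF domain and no histone domain. All 5 lower members passed the filter in both groups and none of the higher ones did. Linker histones, which bind the DNA between nucleosomes, were not called in any of 4 tested genes in the deposited scaling (0 of 4 also with edgeR, and 0 at an unadjusted p under 0.05 in limma). After median-ratio rescaling 2 of the 4 were lower and after quantile normalization 3, with 0 higher. DN3534_c3_g1 had 16.9, 11.8, 13.2 and 13.5 at 14 h, against 15.2, 7.34, 8.88, 14.2 and 11.2 at 7 h, with overlapping groups (log2 change 0.30 ± 0.23, limma adjusted p = 0.26, and -0.57 with median-ratio and -0.43 with quantile scaling).

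Cell cycle and replication genes had 0 of 11 higher and 2 lower with a median change of -0.10, below the 0.76 of all genes, and 10 of 11 were lower after either rescaling. Cyclin B drives entry into mitosis, and its match DN1814_c0_g1 had 1.56, 1.11, 1.53 and 1.14 at 14 h, against 2.90, 2.92, 3.07, 3.33 and 3.38 at 7 h (log2 change -0.82 ± 0.16, limma adjusted p = 8.0e-04). A second cyclin B match, DN1292_c0_g1, chosen after its values were seen, had 17.8, 19.01, 17.2 and 18.7 at 14 h, against 19.6, 20.2, 31.6, 22.1 and 27.1 at 7 h. Its groups did not overlap, yet its change of -0.37 ± 0.18 did not pass the test (limma adjusted p = 0.093). The other member called lower, a ribonucleotide reductase match (DN17026_c0_g1, limma adjusted p = 0.050), lost its call without any 1 of 8 of the 9 libraries. A cyclin A match (DN5561_c0_g1) averaged 4.29 ± 0.128 at 14 h and 4.69 ± 0.399 at 7 h (limma adjusted p = 0.57).

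Transcription factors were called in both directions. Of 16 tested genes 4 were higher and 2 lower with a median of -0.04, and 0 higher and 1 lower of the 9 that passed in both groups. After median-ratio rescaling 3 were higher and 11 lower, and after quantile normalization 0 higher and 13 lower. With no filter, 19 of 54 transcription factors were higher and 4 lower, beside 63.5% and 3.46% of all genes. A SOX11 match (DN12174_c0_g1), of an HMG-box family that acts in nerve cell formation in vertebrates, had 2.54, 3.41, 3.74 and 5.09 at 14 h, against 0.110, 2.28, 0.971, 0.064 and 0.127 at 7 h. The 7 h B library came close to the lowest 14 h library without reaching it, and the change of 1.58 ± 0.34 (limma adjusted p = 0.0018) was not called by edgeR (adjusted p = 0.062). A homeodomain match to HXA3A (DN7672_c0_g1), of the Hox family that patterns the body axis, had 0.181, 0.161, 0.228 and 0.161 at 14 h, against 1.46, 0.983, 1.12, 0.988 and 1.12 at 7 h (log2 change -0.85 ± 0.12, limma adjusted p = 8.5e-05). A match to the bZIP factor DBP (DN906_c0_g1) had 2.40, 1.82, 2.28 and 1.84 at 14 h, against 4.38, 3.76, 4.67, 4.34 and 3.98 at 7 h (log2 change -0.76 ± 0.16, limma adjusted p = 0.0015). Both of these were lower in every 14 h library than in any 7 h library. A match to the muscle factor MEF2 (DN7593_c0_g1), chosen after its values were seen, averaged 3.67 ± 0.143 at 14 h and 4.85 ± 1.46 at 7 h and did not pass the test (limma adjusted p = 0.24).

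The tested transporters were split, with 8 of 15 higher and 5 lower, and 4 higher and 5 lower of the 11 that passed in both groups (4 higher and 6 lower after median-ratio rescaling, 2 higher and 6 lower after quantile normalization). With no filter, 64 of 84 transporters were higher and 7 lower, beside 63.5% and 3.46% of all genes. A glucose transporter match (DN18580_c0_g1) had 6.61, 9.44, 5.24 and 7.06 at 14 h, against 14.9, 16.3, 17.9, 16.2 and 18.0 at 7 h, with no overlap (log2 change -1.15 ± 0.18, limma adjusted p = 2.5e-04). In contrast, a sodium pump match (DN8227_c4_g2) averaged 5.17 ± 3.07 at 14 h and 0.220 ± 0.202 at 7 h. A match to the reverse transcriptase of a Drosophila transposon, BS (DN5594_c0_g1), had the largest fall among genes with a match or domain. It had 23.5, 13.2, 24.8 and 14.5 at 14 h, against 133, 107, 143, 147 and 128 at 7 h (log2 change -2.77 ± 0.22, limma adjusted p = 3.8e-06).

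Genes with no match and no domain made up 914 of the 1523 higher genes and 230 of the 273 lower genes. The 2 with the largest falls share an assembly cluster. DN8107_c0_g2 had 35.5, 29.8, 39.3 and 24.0 at 14 h, against 420, 313, 363, 410 and 336 at 7 h (log2 change -3.49 ± 0.18), and DN8107_c0_g1, which carries a signal peptide mark, had 21.9, 20.5, 23.4 and 16.6 at 14 h, against 241, 198, 258, 230 and 222 at 7 h. Both pairs of groups were compact and wide apart, at a limma adjusted p of 7.7e-07 for DN8107_c0_g2 and 7.0e-07 for DN8107_c0_g1. The 2 with the largest rises spread widely at 14 h. DN33416_c0_g1 had 513, 791, 123 and 23.6 at 14 h, against 2.51, 16.9, 0.791, 1.91 and 9.37 at 7 h, and DN16075_c0_g1 had 287, 341, 54.8 and 13.2 at 14 h, against 0.648, 8.44, 0.844, 1.19 and 1.07 at 7 h. Their order among the 14 h libraries, B above A, C and then E, was that of the rDNA frame and ORF91 matches above, and 7 h B was the highest 7 h library in both.

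Over the 5 subitaneous times of the table, the called genes differed in when they were highest. These counts use group means without a test, and the 42 h D library stood apart, with a rank correlation over 9502 genes of 0.481 with the averaged remaining 42 h libraries and 0.844 with the averaged 3 h libraries. Of the 1523 genes higher at 14 h than at 7 h, 405 had their highest mean at 14 h and 979 at 42 h (381 and 1039 without 42 h D). Of the 273 lower genes, 241 had their highest mean at 3 h and 31 at 7 h (242 and 31 without 42 h D). The myosin match DN5090_c0_g1 averaged 62.8 ± 37.1 at 14 h and was listed at 0 in all 4 libraries at 24 h, with 0.353 ± 0.707 in the 42 h libraries other than D. The myosin heavy chain list as a whole did not follow this match. Its 101 tested genes had a mean summed value of 2473 at 14 h, 4479 at 24 h and 3422 at 42 h with library D included. The ankyrin gene DN30880_c0_g1 averaged 40.4 ± 10.5 in the 14 h libraries and 2.16 ± 1.57 in the 7 h libraries. Its means were 10.4 ± 3.10 for the 3 h eggs, 2.09 ± 1.34 for the 24 h eggs and 5.23 ± 2.16 for the 42 h eggs without D. Trypsin (DN10880_c0_g1) averaged 45.9 ± 40.3 at 24 h, below its 14 h mean of 183 ± 93.6, and 763 ± 521 at 42 h without D. The second Spaetzle 2 match (DN3344_c0_g1) had a higher mean at each later time, with 57.9 ± 12.1 at 24 h and 135 ± 67.8 at 42 h without D. The H3.3 match DN2548_c1_g1 averaged 403 ± 45.96 at 3 h, more than at 7 h or at 14 h, while the linker histone match DN3534_c3_g1 averaged 375 ± 37.3 at 3 h and was already at 11.4 ± 3.36 at 7 h.

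**Figure D5:**
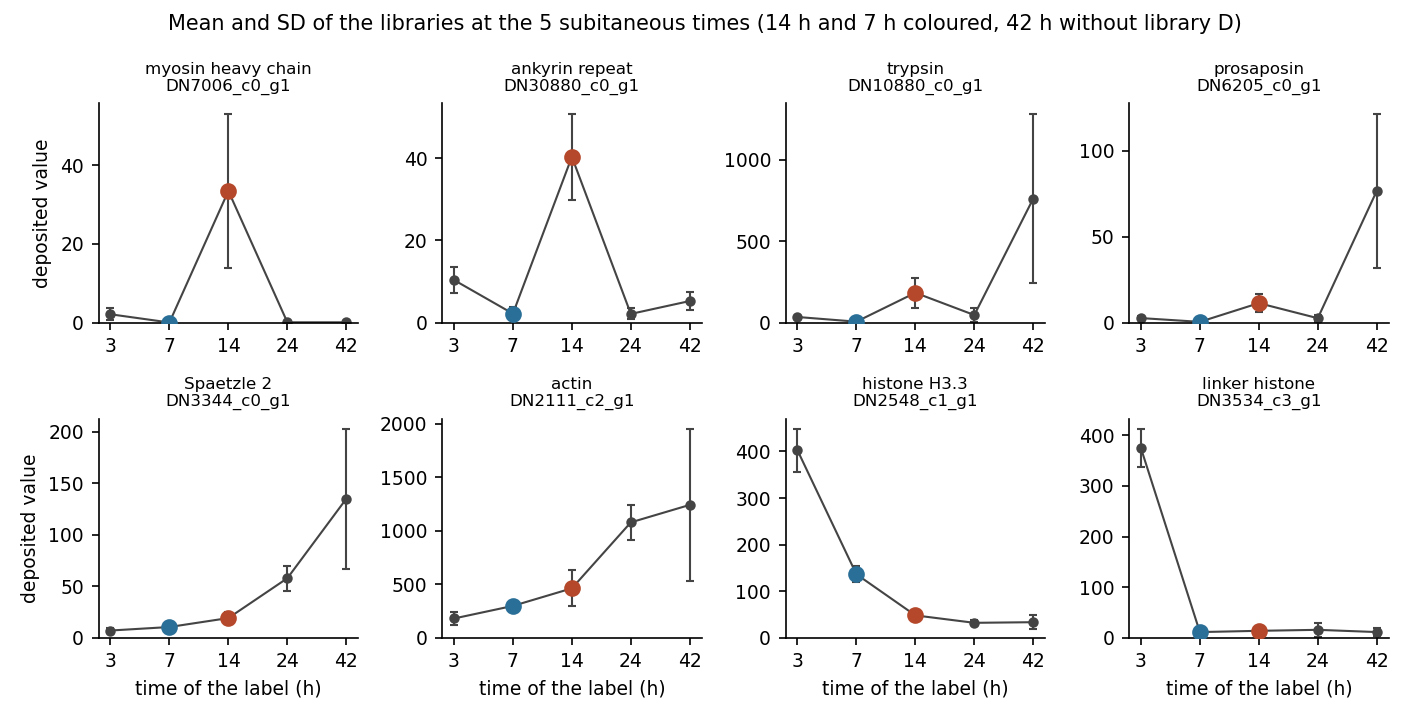
Mean deposited value of 8 genes at the 5 sampled times from 3 to 42 h, with bars of 1 SD over the libraries of a time and 42 h without library D (14 h and 7 h coloured, linear axes from 0, bars cut at 0). The myosin heavy chain match DN7006_c0_g1 and the ankyrin repeat gene have their highest mean at 14 h, trypsin and prosaposin at 42 h, and both histones at 3 h.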

How the data were processed

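RNA-seq libraries of whole eggs were made with a TruSeq kit from 0.3 µg of RNA, per the labels' protocols. The authors deposited 1 table of scaled signal values per assembled gene and library, for genes they had selected among the subitaneous samples with their alpha set to 0.001 and their fold change to 2, per the labels. The submitters' processing notes name bcl2fastq and edgeR. For the aligner, counter and scaling the entry is: not given in the sources used here. All values up to 2000 reads were whole multiples of 1 read within 0.1 of a step (100% of values), which gave the reads per library. These cover the genes of the table only, not the full depth.

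Values were tested as log2(value + 1) with limma 3.58.1 in R 4.3.3, with group as the only term and a trended, robust variance prior from the 9 libraries, and p-values were adjusted by the Benjamini-Hochberg method over the 2653 genes that reached a value of 1 in 3 or more libraries. This scale understates changes of low genes. The script was tested on simulated data. Alternatives were edgeR 4.0.16 and DESeq2 1.42.0 on the recovered reads, 2 rescalings, another pseudocount, other filters, other variance settings, subsets of the libraries and a replicate block.

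Named genes were the 15 largest called rises and 15 largest called falls with a match or domain and no overlap, the 3 largest of each direction in each of 32 gene lists, the 5 most abundant of each direction, all members of small lists and, of unmatched genes, the 2 largest of each direction. Genes chosen outside this rule for their role, after their values were seen, were the processing enzymes of neuropeptides, an opsin, a second cyclin B, cyclin A, MEF2 and thymosin beta. So were matches to an arrestin (DN3931_c0_g1), a synaptobrevin (DN1343_c0_g1), ITPL (DN6914_c0_g1), PROH3 (DN1429_c0_g1), MCM7 (DN130554_c0_g1) and a sequestosome (DN1030_c0_g1). Those of them that were called enter the counts of called named genes. The members and lists were chosen with earlier results of these data known. No sequences were used here.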

Additional observations from a re-analysis of the deposited data

Results flagged for a closer look

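Within groups of 4 or 5 libraries, 108 groups of values were examined for a library far from the others, and 11 were flagged, while chance flags about 1 in 20. By library the flags were 4 in 7 h C, 2 each in 14 h E, 7 h A and 7 h B, and 1 in 7 h D. At 14 h, library E stood above the others for the metalloprotease match DN5811_c0_g1 at 23.5 and for the cuticle protein match DN4296_c0_g1 at 40.2.

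At 7 h, library C was the high one for trypsin (DN10880_c0_g1) at 16.9, chitinase 10 (DN5228_c0_g1) at 0.665, Cactus (DN4041_c0_g1) at 0.317 and the ankyrin gene DN30880_c0_g1 at 4.86. Library 7 h D was the only one above 0 for the myosin match DN5090_c0_g1 at 0.384, and 7 h A was for RL39 (DN130444_c0_g1) at 0.269. The Hox match DN7672_c0_g1 was highest in 7 h A at 1.46. Library 7 h B was lowest for the UAF30 match DN108694_c0_g1 at 1116 and highest for the unmatched gene DN16075_c0_g1 at 8.44. In each of these genes the groups did not overlap.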

How the results depend on the processing

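The counts of 1523 higher and 273 lower genes moved by over 1.5 times under some settings. They were 948 higher and 615 lower after median-ratio rescaling, and 592 higher and 770 lower after quantile normalization. Without a filter 6025 genes were higher and 328 lower over 9488 genes, and with a value of at least 5 in 3 libraries 480 were higher and 196 lower over fewer genes. With the spread of all 26 libraries 956 were higher and 146 lower, and at an adjusted p under 0.001 with a log2 change of at least 1 the counts were 798 and 146. The cause was not tested, apart from the number of genes and the threshold. edgeR gave 1422 higher and 257 lower and DESeq2 1527 and 279. Leaving out 1 library gave 1407 to 1496 higher and 252 to 269 lower genes, and 1327 higher and 239 lower genes were called in every such fit. Deviations of same-letter libraries correlated at 0.088 for A, 0.555 for B, 0.295 for C and -0.171 for E. B and C correlated best with their own letter and A and E did not. These values do not settle whether the letters pair the samples, and the main fit did not use them as pairs. A replicate block by letter gave 1498 higher and 254 lower genes.

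Of 149 named genes called, 138 were called the same way in every fit that left out 1 library and 108 under both rescalings. Changes that turned negative after median-ratio rescaling were DN7029_c0_g1 (-0.059), DN3534_c3_g1 (-0.57), DN3344_c0_g1 (-0.11), DN2111_c2_g1 (-0.37), DN1612_c0_g1 (-0.19), DN6282_c0_g1 (-0.13), DN907_c0_g1 (-0.11) and DN439_c1_g1 (-0.23). After quantile normalization they were DN7029_c0_g1 (-0.59), DN7224_c0_g1 (-0.032), DN3534_c3_g1 (-0.43), DN2805_c0_g1 (-0.18), DN4407_c0_g1 (-0.11), DN4830_c0_g1 (-0.015), DN907_c0_g1 (-0.45), DN439_c1_g1 (-0.059), DN3931_c0_g1 (-0.53) and DN1343_c0_g1 (-0.066). Among genes not called, letters A and B alone gave positive changes for DN12273_c0_g2 (0.014), DN4693_c1_g1 (0.085), DN25658_c0_g1 (0.018), DN4094_c0_g1 (0.0029), DN9487_c0_g1 (0.21) and DN32609_c0_g1 (0.38). Over the fits without 1 library, uncalled changes ran from -0.31 to 0.027 for DN12273_c0_g2, from -0.19 to 0.011 for DN4693_c1_g1, from -0.24 to 0.066 for DN25658_c0_g1 and from -0.38 to 0.20 for DN32609_c0_g1. Technical replicates and the authors' selection of genes limit every count.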

Other observations

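Of the 2653 genes tested, 1778 carried neither a match nor a domain. Genes with a signal peptide mark and no match or domain were higher at 14 h in 178 of 254 and lower in 33, with a median log2 change of 1.09. Genes with none of these marks were higher in 736 of 1524 and lower in 197, with a median of 0.62. Of those that passed the filter in both groups, 55 of 110 with the mark were higher and 25 lower, and 261 of 867 without it were higher and 167 lower. By the organism of the best match, 423 of 631 animal matches were higher and 25 lower, 56 of 67 plant or algal matches were higher and 1 lower, 37 of 56 fungal matches were higher and 10 lower, and 35 of 35 protist matches were higher.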
